A study of Mus musculus with 45 samples.

Results

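The genes described here encode the proteasome, the protease that destroys ubiquitin-tagged proteins, together with its assembly factors. They were chosen by symbol: every array probe set annotated to a single gene whose symbol starts with Psma, Psmb, Psmc, Psmd, Psme, Psmf or Psmg was taken, and a gene with several was represented by its brightest probe set, averaged over all arrays. The rule found 48 genes on 85 probe sets, out of 12394 genes with a probe set of their own. Of these 48 genes, 47 were among the 9295 genes tested, and 1, Psma8, lay below the filter on low genes. By textbook role the 48 fell into 7 alpha subunits and 7 constitutive beta subunits of the 20S core, 3 immunoproteasome beta subunits, 6 ATPases and 11 non-ATPase subunits of the 19S regulatory particle, 4 activators or inhibitors, 7 assembly chaperones, the tissue-restricted Psma8 and 2 genes that share only the name, Psmc3ip and Psme3ip1. The probe set of the activator Psme2 is annotated to both Psme2b and Psme2, so that gene was not a member.

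Total RNA from hearts of male C57BL/6 mice was measured on 45 arrays, labelled as biological replicates. Fat gave about 5 kcal% of the regular diet of the regular weight mice (RW). The mice with diet-induced obesity (DIO) had 60 kcal% fat from 6 weeks of age, for 9 weeks before the exposures and during them. At 15 weeks of age both kinds of mice were put into nose-only inhalation of filtered air (SC, sham control), mainstream (MS) or sidestream (SS) cigarette smoke, 5 h a day for 8 exposures over 2 weeks, with necropsy on the next day. The RW mice gave 8 arrays in air (RW-SC), 8 with mainstream smoke (RW-MS) and 7 with sidestream smoke (RW-SS). The DIO mice gave 8 in air (DIO-SC), 6 with mainstream smoke (DIO-MS) and 8 with sidestream smoke (DIO-SS). By its title the series asks how diet and obesity bear on the response of the heart to smoke. The tissue is labelled heart with no chamber named. A level averages over all cell types of the sample, and fewer cells of a type cannot be told apart from less RNA per cell.

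The proteasome consists of a barrel, the 20S core, and caps that feed it. The core stacks alpha rings on the outside, which gate the entry, around beta rings that hold the catalytic sites. The 19S cap recognises ubiquitin chains, removes them and unfolds the substrate with a ring of ATPases. Interferon induces 3 alternative catalytic subunits, Psmb8, Psmb9 and Psmb10, which replace Psmb5, Psmb6 and Psmb7 in newly built cores. The resulting immunoproteasome makes peptides suited to presentation on MHC class I. In heart muscle the proteasome turns over sarcomeric and oxidised proteins, and blood-derived cells make immunoproteasome subunits without induction.

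Values are log2 expression values. A difference is a difference of group means on this scale ± its standard error (SE) from limma, and p-values are adjusted over all 9295 genes tested, with a threshold of 0.05. For each group the lowest, the median and the highest array are given in this order. Arrays are named by group and number, for example RW-SS 7. The heart markers Myh6, Actc1, Tnnt2 and Tnni3 read above 14 on every array. The list of atrial markers was more than 2.8 log2 units below its mean on RW-MS 2, RW-MS 6 and RW-MS 8 and not on the other RW-MS arrays. RW-SS 7 had the largest 3' minus 5' difference of Gapdh probe sets of all arrays (0.94, the next highest 0.40).

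Changes among the proteasome genes were small and went in both directions. Over the 11 comparisons, 79 of 517 values passed the threshold, and they ranged from 0.064 to 0.27 in absolute size. Of all genes tested, 0.226% to 32.6% were called, depending on the comparison, and each share is set beside its count below. At least 1 comparison called 28 of the 47 genes and none called 19. The share of all genes called at least once was not computed, so these counts describe no trait of the proteasome genes. Sidestream smoke in RW mice raised 8 members and lowered 4, or 25.5%, where 24.6% of all genes were called (11.7% higher and 13.0% lower). In DIO mice it raised 12 and lowered 1, or 27.7%, where 31.8% of all genes were called (23.0% higher and 8.82% lower). Mainstream smoke raised 2 members in RW mice, 4.26% beside 6.86% of all genes (2.86% higher and 4.0% lower). It raised 3 in DIO mice, 6.38% beside 4.55% of all genes (3.66% higher and 0.893% lower), and lowered none in either diet.

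Between the diets in air, 3 members were higher and 9 lower in DIO mice, 25.5% beside 20.3% of all genes (6.92% higher and 13.3% lower). Under mainstream smoke 1 was higher and 7 were lower in DIO mice, 17% beside 10.6% of all genes (5.14% higher and 5.45% lower). Under sidestream smoke 8 were higher and 4 lower, 25.5% beside 32.6% (19.7% higher and 12.9% lower). The lower calls in air and under mainstream smoke were thus somewhat above the background and those under sidestream smoke below it, which was not tested. Sidestream against mainstream smoke gave 4 lower members in RW mice, 8.51% beside 5.82% of all genes (2.19% higher and 3.63% lower). In DIO mice it gave 2 higher members, 4.26% beside 2.55% (1.59% higher and 0.958% lower). In the sidestream interaction, the effect of sidestream smoke in DIO minus that in RW mice, 9 members were positive and 2 negative, 23.4% beside 28.4% of all genes (18.3% positive and 10.1% negative). In the mainstream interaction limma called 0 members (0.226% of all genes), and 3 of 47 had an unadjusted p under 0.05. With a further quantile normalization the counts of higher and lower members were 10 and 1 for sidestream smoke in RW mice, 7 and 3 for it in DIO mice, 6 and 8 for the diet under sidestream smoke, and 3 and 4 for the sidestream interaction, so these splits depend on the scaling. Without any single array the counts stayed between 0 and 5 for mainstream smoke in DIO mice and between 0 and 4 for sidestream against mainstream smoke there, and without RW-SS 7 the count in RW mice was 2 in place of 4. Several of these comparisons share control arrays, and their values are set side by side below.

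**Figure D1:**
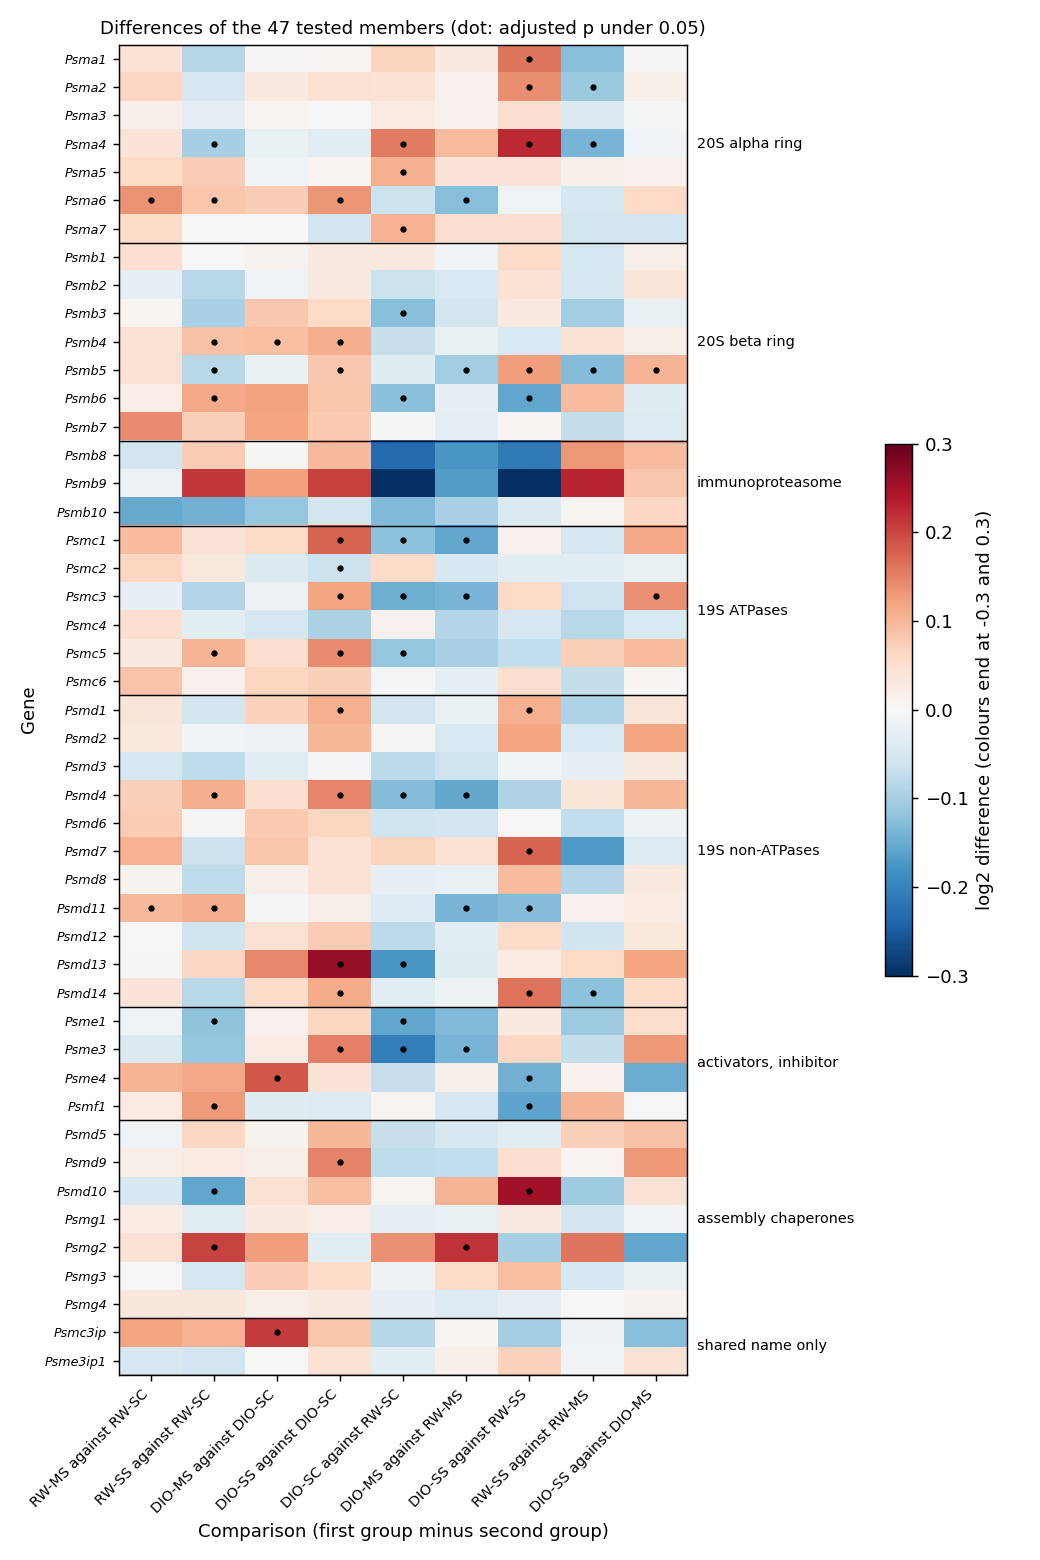
Log2 differences of the 47 tested members (rows, by role) in the 9 comparisons of 2 groups (columns); red is higher and blue lower in the first group, colours end at 0.3 in either direction, and dots mark an adjusted p under 0.05. The cells of Psmb9 in DIO against RW mice in air (-0.31) and under sidestream smoke (-0.31) are the darkest and carry no dot, while those of Psmd13 with sidestream smoke in DIO mice (0.26) and of Psmd10 between the diets under sidestream smoke (0.25) do.

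Psmb8 and Psmb9 had the largest spread between mice of 1 group among the 47 tested members, and no group comparison called any of the 3 immunoproteasome subunits. Psmb8 (Entrez gene 16913), the inducible replacement of the chymotrypsin-like subunit Psmb5, read 7.51, 7.76 and 8.27 in RW-SC, 7.51, 7.63 and 8.79 in RW-MS and 7.35, 7.72 and 9.04 in RW-SS. In the DIO groups it read 7.45, 7.52 and 8.05 in DIO-SC, 7.34, 7.53 and 8.07 in DIO-MS and 7.48, 7.70 and 7.86 in DIO-SS. The high ends of RW-MS and RW-SS are single arrays, and all groups overlap. Psmb9 (Entrez gene 16912), which replaces the caspase-like subunit Psmb6, read 6.84, 7.10 and 7.39 in RW-SC, 6.76, 7.01 and 7.89 in RW-MS, 6.60, 7.06 and 8.50 in RW-SS, 6.59, 6.76 and 7.15 in DIO-SC, 6.66, 6.85 and 7.44 in DIO-MS and 6.81, 7.03 and 7.21 in DIO-SS. Its highest arrays are again single RW mice and its groups overlap. Psmb10 (Entrez gene 19171), which replaces the trypsin-like subunit Psmb7, read 9.07, 9.20 and 9.36 in RW-SC, 8.95, 9.06 and 9.25 in RW-MS, 8.85, 8.97 and 9.58 in RW-SS, 8.97, 9.07 and 9.21 in DIO-SC, 8.79, 8.95 and 9.14 in DIO-MS and 8.84, 9.04 and 9.15 in DIO-SS. For Psmb10 the RW mice in air lie high: the medians of the other groups fall between 8.95 and 9.07, at or below the lowest RW-SC array, and all groups overlap.

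**Figure D2:**
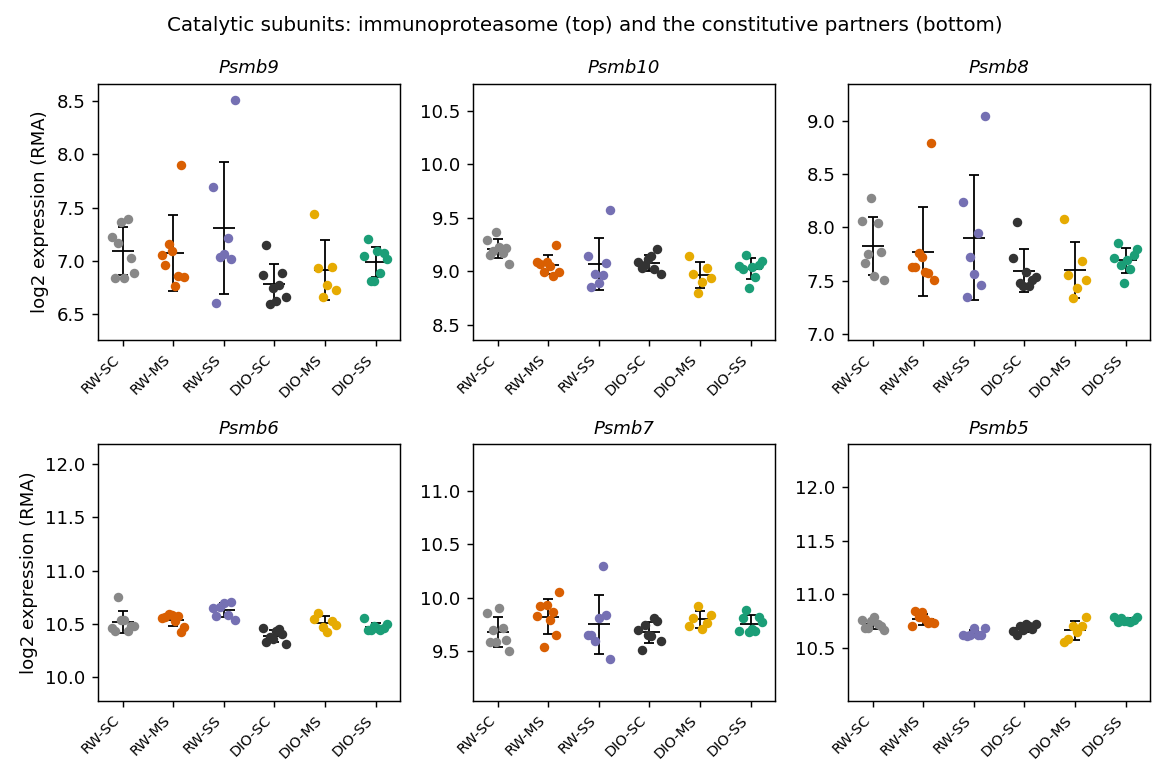
Log2 expression of the 3 immunoproteasome subunits (top) and the constitutive subunits they replace (bottom) in the 6 groups; points are arrays, horizontal lines the group mean and bars 1 SD, and all panels span the same number of log2 units. Psmb8 and Psmb9 spread over more than 1 log2 unit in RW-SS, whereas Psmb5 stays between 10.55 and 10.84 in all groups.

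With all arrays kept, the differences of the immunoproteasome subunits between DIO and RW mice were negative at all 3 exposures, and none passed the threshold. In air, Psmb9 differed by -0.31 ± 0.16 (SE, adjusted p = 0.172), Psmb8 by -0.23 ± 0.16 (SE, adjusted p = 0.325) and Psmb10 by -0.13 ± 0.064 (SE, adjusted p = 0.134). The 95% intervals were -0.63 to 0.016 for Psmb9 and -0.56 to 0.097 for Psmb8. The 3 had a median difference of -0.23, beside -0.024 for all genes tested. This comparison depended on the estimate of spread. With a fit to the RW-SC and DIO-SC arrays alone, the differences of Psmb9 (adjusted p = 0.0251) and Psmb10 (adjusted p = 0.0285) passed, and with array weights Psmb9 passed (-0.33, adjusted p = 0.0216). Under sidestream smoke Psmb9 differed by -0.31 ± 0.17 (SE, adjusted p = 0.14) between DIO and RW mice, and 8 of 8 DIO-SS arrays lay below the RW-SS mean. That mean includes RW-SS 7, and without RW-SS 7 the difference was -0.11. Under mainstream smoke the differences of Psmb8, Psmb9 and Psmb10 were -0.17, -0.17 and -0.098, with adjusted p of 0.589, 0.599 and 0.399. Leaving out 1 array at a time, the median difference of the 3 subunits ranged from -0.27 to -0.050 under mainstream smoke. It ranged from -0.30 to -0.022 under sidestream smoke, so its size under both smokes depended on single arrays.

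Whether the lower Psmb10 level with sidestream smoke in RW mice passed the threshold rested on 1 array. Psmb10 differed by -0.14 ± 0.066 (SE, adjusted p = 0.105) between RW-SS and RW-SC. Without RW-SS 7, its highest value, the difference was -0.23 with an adjusted p of 0.00112, and with array weights it was -0.19 with an adjusted p of 0.00461. With mainstream smoke in RW mice Psmb10 differed by -0.15 ± 0.064 (SE, adjusted p = 0.156), with 7 of 8 RW-MS arrays below the RW-SC mean. In DIO mice the differences were -0.12 with mainstream smoke (adjusted p = 0.388) and -0.054 with sidestream smoke (adjusted p = 0.538). Neither of these passed. Sidestream smoke in RW mice gave 0.076 ± 0.17 (SE, adjusted p = 0.786) for Psmb8 and 0.21 ± 0.17 (SE, adjusted p = 0.364) for Psmb9. Without RW-SS 7 these became -0.11 (adjusted p = 0.610) and 0.012 (adjusted p = 0.961). The interactions of all 3 were small against their errors, at most 0.14 ± 0.24 (SE) for Psmb9 with mainstream smoke.

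The 3 immunoproteasome genes varied together from mouse to mouse. Each value was set against its own group mean, and the values were then correlated over the 45 arrays, as a description. Psmb8 and Psmb9 had r = 0.95, Psmb8 and Psmb10 r = 0.77, and Psmb9 and Psmb10 r = 0.79. Without RW-MS 7 and RW-SS 7 these were 0.90, 0.58 and 0.57. Psmb8 had a within-group SD of 0.34 and Psmb9 of 0.33, larger than those of 97.9% and 97.8% of all tested genes. Without the same 2 arrays their SDs were 0.22 and 0.23, still above 95.4% and 95.7% of genes. Psmb10 varied less: its SD of 0.13 was above 65.8% of genes and below those of Psmb7 (0.15), Psmd2 and Psmg2 (both 0.14), and without the same 2 arrays it was 0.091, above 38.7% of genes. The median within-group SD was 0.075 over the 47 members and 0.11 over all genes tested.

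Psmb8 and Psmb9 are neighbours in the genome. In the RefSeq gene table Psmb9, Tap1, Psmb8 and Tap2 follow each other in this order on chromosome 17, Tap1 and Tap2 being the subunits of the transporter that carries peptides into the endoplasmic reticulum, while Psmb10 lies on chromosome 8. The 220 bases before the RefSeq start (GRCm38.p6) are shown for the 3 subunits that moved together and for Psmb5, the constitutive partner of Psmb8, which did not move with them. Each sequence runs 5' to 3' on the strand of its gene, which is the forward strand for Psmb8 and the reverse strand for the others. Capitals mark a match to 1 of 3 motifs searched on both strands: the core of the gamma-activated site (TTCNNNGAA, the same on both strands), of the interferon-stimulated response element (GAAA and GAAA with any 2 bases between them) and of the antioxidant response element (TGACNNNGC).
Psmb8 (chr17:34197975-34198194): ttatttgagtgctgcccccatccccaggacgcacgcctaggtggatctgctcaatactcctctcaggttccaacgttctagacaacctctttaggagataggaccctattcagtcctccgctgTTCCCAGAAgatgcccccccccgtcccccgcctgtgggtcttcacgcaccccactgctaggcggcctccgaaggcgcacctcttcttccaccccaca
Psmb9 (chr17:34187331-34187550): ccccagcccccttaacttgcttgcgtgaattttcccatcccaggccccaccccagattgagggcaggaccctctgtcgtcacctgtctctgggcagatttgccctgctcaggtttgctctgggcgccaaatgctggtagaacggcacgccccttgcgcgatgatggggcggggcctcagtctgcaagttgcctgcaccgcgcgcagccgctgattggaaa
Psmb10 (chr8:105938393-105938612): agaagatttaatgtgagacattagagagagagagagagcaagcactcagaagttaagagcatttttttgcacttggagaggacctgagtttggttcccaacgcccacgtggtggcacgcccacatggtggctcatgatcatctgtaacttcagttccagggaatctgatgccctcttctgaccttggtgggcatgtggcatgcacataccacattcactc
Psmb5 (chr14:54617996-54618215): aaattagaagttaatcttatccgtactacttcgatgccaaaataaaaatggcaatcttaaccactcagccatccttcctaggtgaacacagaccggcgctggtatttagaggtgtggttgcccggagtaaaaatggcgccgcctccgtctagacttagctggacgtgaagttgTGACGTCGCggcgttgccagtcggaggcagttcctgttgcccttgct
Psmb8 held the gamma-activated core at 97 to 89 bases before its start, and Psmb5 held the antioxidant core at 47 to 39 bases. The windows of Psmb9 and Psmb10 held none of the 3 letter patterns.

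Of the 47 tested members, 40 had a promoter in this table. The gamma-activated core was in 1 of the 40 (2.5%, Psmb8), against 7.02% of the 27025 genes in the table. The interferon-stimulated core was in 3 (7.5%: the non-catalytic beta subunit Psmb3, the ubiquitin receptor Psmd4 and the chaperone Psmd9), against 2.97% of genes. The antioxidant core was in 3 (7.5%: Psmb5, Psmb6 and Psmd9), against 10.4% of genes. The 2 motifs of Psmd9 did not overlap, lying at 159 to 150 and at 31 to 23 bases. A match describes letters and is not a binding site.

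The immunoproteasome genes moved with the antigen presentation genes and, more loosely, with the leukocyte antigen Ptprc (CD45). For 6 catalytic subunits and 5 other genes, 30 correlations of group-centred values over 45 arrays were computed, with p from 100000 permutations within groups and adjustment over the 30 for each coefficient. The 2 farthest arrays are those farthest from the median of the other gene, whatever the subunit reads on them. They therefore differ from gene to gene. With B2m, the light chain of MHC class I, Psmb8 had r = 0.81 (permutation p = 1.00e-05, adjusted p = 4.29e-05; Spearman's rho 0.83, permutation p = 1.00e-05, adjusted p = 7.50e-05; r without the 2 farthest arrays 0.76). Within the groups this r lay between 0.73 and 0.97, all 6 being positive. Psmb9 had r = 0.81 (permutation p = 1.00e-05, adjusted p = 4.29e-05; Spearman's rho 0.87, permutation p = 1.00e-05, adjusted p = 7.50e-05; r without the 2 farthest arrays 0.74) with B2m. Psmb10 had r = 0.55 (permutation p = 0.00043, adjusted p = 0.000992; Spearman's rho 0.53, permutation p = 0.00045, adjusted p = 0.00112; r without the 2 farthest arrays 0.45). The order of these values is that of the pairwise correlations above, with Psmb10 the loosest.

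With Tap1, Psmb8 had r = 0.76 (permutation p = 1.00e-05, adjusted p = 4.29e-05; Spearman's rho 0.70, permutation p = 2.00e-05, adjusted p = 0.0001; r without the 2 farthest arrays 0.58). Psmb9 had r = 0.80 (permutation p = 1.00e-05, adjusted p = 4.29e-05; Spearman's rho 0.71, permutation p = 2.00e-05, adjusted p = 0.0001; r without the 2 farthest arrays 0.65). Psmb10 had r = 0.77 (permutation p = 8.00e-05, adjusted p = 0.000218; Spearman's rho 0.58, permutation p = 0.00023, adjusted p = 0.000627; r without the 2 farthest arrays 0.62). The relation of Psmb8 with Tap1 was positive in 5 groups and negative in DIO-SC (r = -0.46, n = 8). With Tap2, Psmb8 had r = 0.85 (permutation p = 1.00e-05, adjusted p = 4.29e-05; Spearman's rho 0.67, permutation p = 3.00e-05, adjusted p = 0.000112; r without the 2 farthest arrays 0.70). For Psmb9 and Tap2, r = 0.83 (permutation p = 1.00e-05, adjusted p = 4.29e-05; Spearman's rho 0.64, permutation p = 5.00e-05, adjusted p = 0.000167; r without the 2 farthest arrays 0.60). For Psmb10 and Tap2, r = 0.74 (permutation p = 0.00041, adjusted p = 0.000992; Spearman's rho 0.50, permutation p = 0.00137, adjusted p = 0.00316; r without the 2 farthest arrays 0.36).

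With Irf1, the interferon-induced transcription factor, Psmb8 had r = 0.81 (permutation p = 1.00e-05, adjusted p = 4.29e-05; Spearman's rho 0.75, permutation p = 1.00e-05, adjusted p = 7.50e-05; r without the 2 farthest arrays 0.77). For Psmb9 and Irf1, r = 0.82 (permutation p = 2.00e-05, adjusted p = 7.50e-05; Spearman's rho 0.73, permutation p = 1.00e-05, adjusted p = 7.50e-05; r without the 2 farthest arrays 0.80). For Psmb10 and Irf1, r = 0.72 (permutation p = 0.00331, adjusted p = 0.00709; Spearman's rho 0.49, permutation p = 0.00327, adjusted p = 0.00701; r without the 2 farthest arrays 0.53), and without RW-MS 7 and RW-SS 7 it was 0.28. Without RW-MS 7 and RW-SS 7, r with Irf1 was 0.72 for Psmb8 and 0.67 for Psmb9. With Ptprc, Psmb8 had r = 0.71 (permutation p = 6.00e-05, adjusted p = 0.00018; Spearman's rho 0.58, permutation p = 7.00e-05, adjusted p = 0.00021; r without the 2 farthest arrays 0.54). For Psmb9 and Ptprc, r = 0.61 (permutation p = 3.00e-05, adjusted p = 0.0001; Spearman's rho 0.53, permutation p = 3.00e-05, adjusted p = 0.000112; r without the 2 farthest arrays 0.49). For Psmb10 and Ptprc, r = 0.35 (permutation p = 0.00561, adjusted p = 0.0108; Spearman's rho 0.28, permutation p = 0.0418, adjusted p = 0.0737; r without the 2 farthest arrays 0.40), so here the rank correlation missed the threshold. Without RW-MS 7 and RW-SS 7, r for Psmb10 and Ptprc was 0.13. The relation of Psmb8 with Ptprc was positive in 5 groups and negative in DIO-SS (r = -0.42, n = 8), where Ptprc varied least (6.67 to 6.95).

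The constitutive partners behaved otherwise. Psmb5 passed with none of the 5 genes: its r lay between -0.22 and 0.11, with adjusted p of 0.287 or more for r and 0.647 or more for rho. Psmb6 had r = -0.42 (permutation p = 0.00575, adjusted p = 0.0108; Spearman's rho -0.39, permutation p = 0.00798, adjusted p = 0.016; r without the 2 farthest arrays -0.29) with Ptprc and r = -0.40 (permutation p = 0.00645, adjusted p = 0.0114; Spearman's rho -0.20, permutation p = 0.207, adjusted p = 0.311; r without the 2 farthest arrays -0.25) with Tap2, both negative. Psmb7 passed only in the rank correlation with Irf1, where r = -0.43 (permutation p = 0.142, adjusted p = 0.213; Spearman's rho -0.37, permutation p = 0.021, adjusted p = 0.0394; r without the 2 farthest arrays -0.28). The remaining relations of Psmb6 and Psmb7 did not pass with either coefficient. Whether the relations of the immune subunits differ from those of their partners was not tested.

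**Figure D3:**
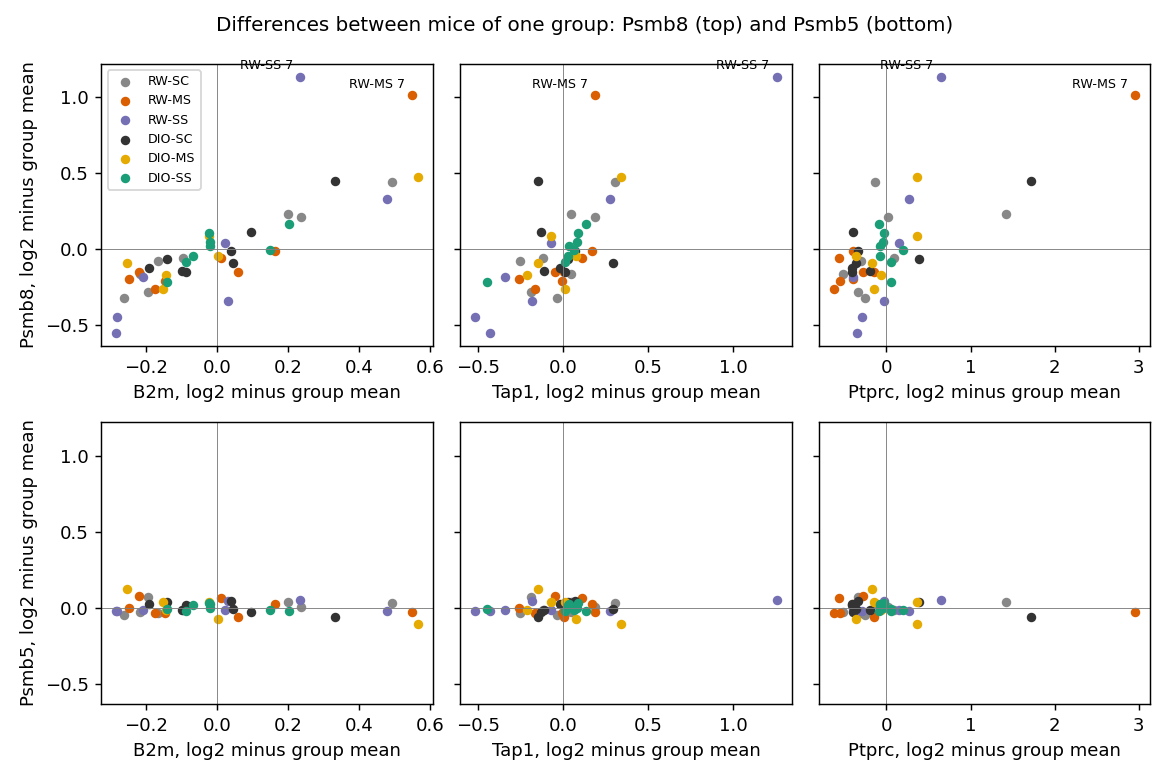
Psmb8 (top) and Psmb5 (bottom) against B2m, Tap1 and Ptprc over 45 arrays, each value minus its group mean in log2 units; points are arrays coloured by group, and RW-MS 7 and RW-SS 7 are named. Psmb8 climbs with all 3 genes, with RW-MS 7 far out on Ptprc and RW-SS 7 far out on Tap1, while Psmb5 stays within a narrow band around 0.

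The 2 highest immunoproteasome arrays differed in what else was high. RW-MS 7 read 8.79 for Psmb8, 7.89 for Psmb9 and 9.25 for Psmb10. On it Ptprc read 10.08, above all other arrays, while Tap1 (6.44) and Irf1 (8.57) were the highest of the RW-MS group by less. RW-SS 7 read 9.04, 8.50 and 9.58. On it Tap1 read 7.69, Irf1 9.39 and Ptprc 7.52. The interferon list (16 of 20 genes tested), averaged after each gene was centred on its mean over all arrays, was 1.29 on RW-SS 7 and 0.14 on RW-MS 7. The leukocyte list (16 of 23 tested), in the same measure, was 0.67 on RW-MS 7 and 0.22 on RW-SS 7. Over the groups the leukocyte list ranged from -0.081 to 0.55 in RW-SC, -0.16 to 0.67 in RW-MS, -0.13 to 0.22 in RW-SS, -0.22 to 0.20 in DIO-SC, -0.24 to 0.19 in DIO-MS and -0.10 to -0.035 in DIO-SS. Ptprc itself read 6.22 or more on every array, on a scale with no true zero. The part of leukocytes in the immunoproteasome levels was not tested.

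The antigen presentation and interferon lists had few calls. Of 10 tested MHC class I genes, mainstream smoke in RW mice lowered 2 and sidestream smoke lowered 1, beside 4.0% and 13.0% of all genes, while smoke in DIO mice and the diet in air called none. Of 16 tested interferon genes, 2 were lower in DIO than in RW mice in air and 3 under sidestream smoke, beside 13.3% and 12.9% of all genes. Sidestream smoke lowered 1 in each diet, the sidestream interaction was negative for 1, and none was higher in any of the 11 comparisons.

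Among the constitutive catalytic subunits, Psmb5 had the most calls of all members, 7 of 11 comparisons. Psmb5 (Entrez gene 19173), the chymotrypsin-like subunit and target of bortezomib, read 10.67, 10.71 and 10.79 in RW-SC, 10.70, 10.75 and 10.84 in RW-MS and 10.61, 10.62 and 10.69 in RW-SS. It read 10.62, 10.68 and 10.72 in DIO-SC, 10.55, 10.67 and 10.78 in DIO-MS and 10.74, 10.76 and 10.79 in DIO-SS. The RW-SS arrays lie below all RW-MS arrays, and the DIO-SS arrays above all DIO-SC and all RW-SS arrays. With sidestream smoke Psmb5 fell by 0.083 ± 0.027 (SE, adjusted p = 0.0225) in RW mice and rose by 0.080 ± 0.027 (SE, adjusted p = 0.0193) in DIO mice. The difference between these effects was 0.16 ± 0.038 (SE, adjusted p = 0.00194). Against mainstream smoke, sidestream smoke gave -0.13 ± 0.027 (SE, adjusted p = 0.00371) in RW mice and 0.10 ± 0.029 (SE, adjusted p = 0.0441) in DIO mice. Between the diets Psmb5 differed by -0.10 ± 0.029 (SE, adjusted p = 0.0127) under mainstream and 0.13 ± 0.027 (SE, adjusted p = 0.000553) under sidestream smoke, in opposite directions, and by -0.037 ± 0.027 (SE, adjusted p = 0.342) in air. Several of these comparisons share arrays, so the 7 calls are not independent. The call against mainstream smoke in DIO mice was lost without any 1 of 12 of the 14 arrays, with adjusted p between 0.0507 and 0.159. The call for sidestream smoke in RW mice was lost without RW-SC 5, and that for the diet under mainstream smoke without DIO-MS 1 or DIO-MS 2.

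Psmb6 (Entrez gene 19175), the caspase-like subunit, was higher with sidestream smoke in RW mice, and lower in DIO mice in air and under sidestream smoke. It read 10.43, 10.48 and 10.75 in RW-SC, 10.43, 10.56 and 10.59 in RW-MS, 10.54, 10.65 and 10.70 in RW-SS, 10.31, 10.39 and 10.46 in DIO-SC, 10.42, 10.51 and 10.60 in DIO-MS and 10.44, 10.46 and 10.55 in DIO-SS. The groups overlap, with RW-SC 3 the highest array of RW-SC. The rise with sidestream smoke was 0.11 ± 0.037 (SE, adjusted p = 0.0187) in RW mice, in 7 of 7 arrays. In DIO mice the differences were 0.083 ± 0.035 (SE, adjusted p = 0.0666) with sidestream and 0.12 ± 0.038 (SE, adjusted p = 0.0585) with mainstream smoke, neither past the threshold. Psmb6 was lower in DIO than in RW mice with a difference of -0.13 ± 0.035 (SE, adjusted p = 0.00962) in air and with a difference of -0.16 ± 0.037 (SE, adjusted p = 0.00115) under sidestream smoke. Under mainstream smoke the diets were not called different, with means of 10.54 in RW-MS and 10.51 in DIO-MS. The trypsin-like subunit Psmb7 (Entrez gene 19177) was called in no comparison. It read 9.50, 9.65 and 9.91 in RW-SC, 9.54, 9.85 and 10.06 in RW-MS, 9.43, 9.65 and 10.30 in RW-SS, 9.52, 9.67 and 9.81 in DIO-SC, 9.70, 9.79 and 9.93 in DIO-MS and 9.68, 9.74 and 9.89 in DIO-SS, with overlap throughout. Its largest difference was with mainstream smoke in RW mice, 0.14 ± 0.075 (SE, adjusted p = 0.289), with a 95% interval of -0.010 to 0.29.

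Of the non-catalytic beta subunits, Psmb4 was higher with smoke in 3 of the 4 comparisons with air. Psmb4 (Entrez gene 19172) read 10.999, 11.05 and 11.16 in RW-SC and 11.12, 11.16 and 11.17 in RW-SS, and 10.96, 10.995 and 11.04 in DIO-SC, 11.03, 11.10 and 11.15 in DIO-MS and 11.05, 11.12 and 11.16 in DIO-SS. All DIO-SS arrays lie above all DIO-SC arrays, while the other pairs overlap. The rises were 0.087 ± 0.027 (SE, adjusted p = 0.014) for sidestream smoke in RW mice, 0.11 ± 0.026 (SE, adjusted p = 0.00133) for sidestream smoke in DIO mice and 0.091 ± 0.028 (SE, adjusted p = 0.0465) for mainstream smoke in DIO mice. The last of these was lost without any 1 of 10 of the 14 arrays. The other probe set of Psmb4 gave values of 0.016, -0.021 and 0.043 in these comparisons, and none of them passed. Psmb3 was lower in DIO than in RW mice in air with a difference of -0.13 ± 0.042 (SE, adjusted p = 0.0243), and its sidestream effect differed between the diets by 0.16 ± 0.060 (SE, adjusted p = 0.0443). The other probe set of Psmb3 gave -0.095 and 0.064 for these, and neither passed. Psmb1 and Psmb2 were called in no comparison.

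In air 3 of the 7 alpha ring subunits were higher in DIO mice and none was lower, beside 6.92% of all genes higher and 13.3% lower. Psma4 (Entrez gene 26441) read 10.11, 10.18 and 10.24 in RW-SC, 10.13, 10.22 and 10.32 in RW-MS, 9.91, 10.09 and 10.18 in RW-SS, 10.26, 10.33 and 10.41 in DIO-SC, 10.28, 10.30 and 10.39 in DIO-MS and 10.24, 10.30 and 10.40 in DIO-SS. The DIO-SC arrays all lie above the RW-SC arrays, and the DIO-SS arrays all above the RW-SS arrays. Psma4 was higher in DIO mice by 0.15 ± 0.031 (SE, adjusted p = 0.00036) in air and by 0.22 ± 0.032 (SE, adjusted p = 1.07e-06), 16.8% on the linear scale, under sidestream smoke. Under mainstream smoke the difference was 0.096 ± 0.033 (SE, adjusted p = 0.057). In RW mice Psma4 was lower with sidestream smoke than in air with a difference of -0.10 ± 0.032 (SE, adjusted p = 0.0186) and lower than with mainstream smoke with a difference of -0.14 ± 0.032 (SE, adjusted p = 0.00657). The first of these was lost without RW-SS 7 (-0.072, adjusted p = 0.0695). Psma5 was higher in DIO mice in air by 0.11 ± 0.029 (SE, adjusted p = 0.0079) and Psma7 by 0.10 ± 0.030 (SE, adjusted p = 0.011), each in 8 of 8 arrays. The other tested probe set of Psma5 gave 0.032 and that of Psma7 -0.0055, and neither passed.

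Psma6 (Entrez gene 26443) was higher with smoke. It read 11.38, 11.46 and 11.53 in RW-SC, 11.53, 11.59 and 11.67 in RW-MS, 11.46, 11.56 and 11.61 in RW-SS, 11.37, 11.38 and 11.47 in DIO-SC, 11.40, 11.46 and 11.53 in DIO-MS and 11.49, 11.52 and 11.58 in DIO-SS. RW-MS overlaps RW-SC only at its edge, and DIO-SS lies above DIO-SC without overlap. The rises against air were 0.14 ± 0.026 (SE, adjusted p = 0.000484) for mainstream and 0.082 ± 0.027 (SE, adjusted p = 0.0197) for sidestream smoke in RW mice, and 0.13 ± 0.026 (SE, adjusted p = 0.000145) for sidestream smoke in DIO mice. The difference with mainstream smoke in DIO mice was 0.073 ± 0.028 (SE, adjusted p = 0.124). In the mainstream comparison of RW mice the 2 other tested probe sets of Psma6 gave 0.13 and 0.093 and both passed. With sidestream smoke they gave 0.023 and 0.025 in RW mice and 0.061 and 0.043 in DIO mice, and none of these passed. Under mainstream smoke Psma6 was lower in DIO than in RW mice with a difference of -0.13 ± 0.028 (SE, adjusted p = 0.00155), where neither of the other probe sets passed (-0.073 and -0.063). Psma1 and Psma2 were higher in DIO than in RW mice under sidestream smoke, by 0.16 ± 0.044 (SE, adjusted p = 0.00454) and 0.14 ± 0.030 (SE, adjusted p = 0.000463). In RW-SS the lowest Psma1 array read 9.31 beside a median of 9.75. The lowest Psma2 array, RW-SS 7, read 10.92 beside a median of 11.12. A single low array thus enlarged each of these differences. Psma3 was called in no comparison, and its arrays stayed between 11.01 and 11.29 in every group.

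The 19S particle, which unfolds substrates, held most of the calls for sidestream smoke in DIO mice: 7 of its 17 subunits were higher and 1 was lower, beside 23.0% of all genes higher and 8.82% lower. The median difference was 0.076, and 0.042 over all genes tested. With the mean of all probe sets of a gene, the members called in this comparison fell from 13 to 6. In RW mice 3 of 17 were higher with sidestream smoke and none was lower, beside 11.7% and 13.0% of all genes, and the median was -0.013. Psmd13 (Entrez gene 23997), a subunit of the lid, had the largest called difference between 2 groups. It read 8.29, 8.35 and 8.48 in RW-SC, 8.25, 8.37 and 8.50 in RW-MS and 8.33, 8.37 and 8.74 in RW-SS, and 8.16, 8.19 and 8.22 in DIO-SC, 8.25, 8.31 and 8.45 in DIO-MS and 8.37, 8.45 and 8.53 in DIO-SS. The 8 DIO-SC arrays lie in a narrow band below all RW-SC and all DIO-SS arrays. Psmd13 was higher with sidestream smoke in DIO mice by 0.26 ± 0.042 (SE, adjusted p = 1.32e-05), 19.9% on the linear scale, and lower in DIO than in RW mice in air with a difference of -0.18 ± 0.042 (SE, adjusted p = 0.00255). In RW mice the sidestream difference was 0.062 ± 0.044 (SE, adjusted p = 0.31), and 0.0093 without RW-SS 7. The interaction was 0.20 ± 0.061 (SE, adjusted p = 0.0127). The other probe set of Psmd13 passed in the same direction for sidestream smoke in DIO mice (0.18) and for the diet in air (-0.13). For the interaction it gave 0.090 and did not pass.

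Among the ATPases, Psmc1, Psmc3 and Psmc5 were lower in DIO mice in air and higher with sidestream smoke in DIO mice. Those comparisons share the DIO-SC arrays. Psmc3 (Entrez gene 19182) read 10.88, 10.95 and 11.06 in RW-SC, 10.84, 10.93 and 11.03 in RW-MS, 10.77, 10.89 and 10.95 in RW-SS, 10.75, 10.80 and 10.88 in DIO-SC, 10.67, 10.77 and 10.93 in DIO-MS and 10.86, 10.94 and 10.99 in DIO-SS. DIO-SC and DIO-MS lie low, with overlap at their upper ends. The diet in air gave -0.15 ± 0.033 (SE, adjusted p = 0.00109), sidestream smoke in DIO mice 0.12 ± 0.033 (SE, adjusted p = 0.00523), and the interaction 0.21 ± 0.047 (SE, adjusted p = 0.00151). Psmc1 (Entrez gene 19179) read 9.43, 9.49 and 9.59 in RW-SC, 9.26, 9.35 and 9.50 in DIO-SC and 9.52, 9.54 and 9.62 in DIO-SS, the last without overlap with DIO-SC. It differed by -0.12 ± 0.038 (SE, adjusted p = 0.0191) for the diet in air and 0.18 ± 0.038 (SE, adjusted p = 0.000576) for sidestream smoke in DIO mice. Psmc5 (Entrez gene 19184) read 9.55, 9.60 and 9.67 in RW-SC, 9.61, 9.66 and 9.88 in RW-SS, 9.38, 9.49 and 9.55 in DIO-SC and 9.59, 9.63 and 9.67 in DIO-SS, again with no overlap of DIO-SS and DIO-SC. It was higher with sidestream smoke in both diets, by 0.10 ± 0.036 (SE, adjusted p = 0.0311) in RW and 0.14 ± 0.035 (SE, adjusted p = 0.00169) in DIO mice, and lower with the diet in air with a difference of -0.11 ± 0.035 (SE, adjusted p = 0.0151). The RW call of Psmc5 was lost without RW-SC 3, RW-SC 7, RW-SS 2, RW-SS 4 or RW-SS 7, 1 at a time, and the call of Psmc1 in air without DIO-SC 3. Psmc2 went the other way, -0.064 ± 0.024 (SE, adjusted p = 0.0423) with sidestream smoke in DIO mice. The other probe set of Psmc2 gave 0.039 there and was not called. Psmc4 and Psmc6 were called in no comparison.

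Psmd4 (Entrez gene 19185), a ubiquitin receptor of the particle, had the same pattern. It read 10.17, 10.27 and 10.32 in RW-SC, 10.21, 10.35 and 10.44 in RW-MS, 10.21, 10.34 and 10.54 in RW-SS, 10.05, 10.10 and 10.23 in DIO-SC, 10.12, 10.17 and 10.26 in DIO-MS and 10.23, 10.28 and 10.31 in DIO-SS, with overlap between each pair compared. It was lower in DIO mice with a difference of -0.13 ± 0.037 (SE, adjusted p = 0.0106) in air and -0.15 ± 0.040 (SE, adjusted p = 0.00869) under mainstream smoke. It was higher with sidestream smoke by 0.11 ± 0.038 (SE, adjusted p = 0.0321) in RW and 0.15 ± 0.037 (SE, adjusted p = 0.00231) in DIO mice. In RW mice this call was lost without RW-SC 2, RW-SC 7, RW-SS 2, RW-SS 3 or RW-SS 7, 1 at a time. Both other probe sets of Psmd4 passed in the same direction there (0.12 and 0.20), and with sidestream smoke in DIO mice 1 passed (0.14) and 1 was opposite (-0.12, not called). For the diet neither of them passed: they gave -0.057 and 0.12 in air and -0.073 and 0.024 under mainstream smoke.

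Psmd11 (Entrez gene 69077), a lid subunit, was higher with both smokes in RW mice and lower in DIO mice under both smokes. It read 11.20, 11.28 and 11.32 in RW-SC, 11.31, 11.36 and 11.45 in RW-MS, 11.33, 11.36 and 11.46 in RW-SS, 11.19, 11.22 and 11.32 in DIO-SC, 11.19, 11.24 and 11.26 in DIO-MS and 11.21, 11.24 and 11.31 in DIO-SS. RW-SS lies above RW-SC, DIO-MS below RW-MS and DIO-SS below RW-SS, each without overlap. The rises in RW mice were 0.097 ± 0.025 (SE, adjusted p = 0.013) for mainstream and 0.11 ± 0.026 (SE, adjusted p = 0.00184) for sidestream smoke. In DIO mice the differences were -0.0042 and 0.018, and the interactions, -0.10 ± 0.037 (SE, adjusted p = 0.261) and -0.092 ± 0.037 (SE, adjusted p = 0.0526), did not pass. Psmd11 was lower in DIO mice under mainstream smoke with a difference of -0.14 ± 0.027 (SE, adjusted p = 0.00042) and under sidestream smoke with a difference of -0.13 ± 0.026 (SE, adjusted p = 0.000221). Of its 5 other probe sets 1 passed in the same direction in the mainstream comparison of the diets (-0.15). The rest gave -0.011, 0.013, 0.038 and 0.084 there, so most of them went the other way. Under sidestream smoke the 5 gave -0.079, -0.043, 0.0049, 0.022 and 0.026, and none passed. None of the 5 passed for either smoke in RW mice, where 1 gave -0.036 with sidestream smoke.

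Psmd14 (Entrez gene 59029), the deubiquitinase of the lid, read 9.95, 9.99 and 10.06 in RW-SC, 9.67, 9.95 and 10.005 in RW-SS, 9.89, 9.97 and 10.02 in DIO-SC and 9.99, 10.10 and 10.16 in DIO-SS. The low end of RW-SS is RW-SS 7, and the groups overlap. It was higher with sidestream smoke in DIO mice by 0.11 ± 0.037 (SE, adjusted p = 0.0196), and the interaction was 0.19 ± 0.054 (SE, adjusted p = 0.00677), which was 0.15 (adjusted p = 0.0107) without RW-SS 7. Psmd1, a scaffold of the base, was higher with sidestream smoke in DIO mice by 0.11 ± 0.041 (SE, adjusted p = 0.0431) and had an interaction of 0.16 ± 0.059 (SE, adjusted p = 0.0372). Psmd7 was higher in DIO than in RW mice under sidestream smoke by 0.18 ± 0.055 (SE, adjusted p = 0.0133). Here too a single low RW-SS array (8.74, group median 9.17) enlarged the difference. The other tested probe sets of Psmd7 gave -0.054 and 0.044, and neither passed. Psmd2, Psmd3, Psmd6, Psmd8 and Psmd12 were called in no comparison.

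**Figure D4:**
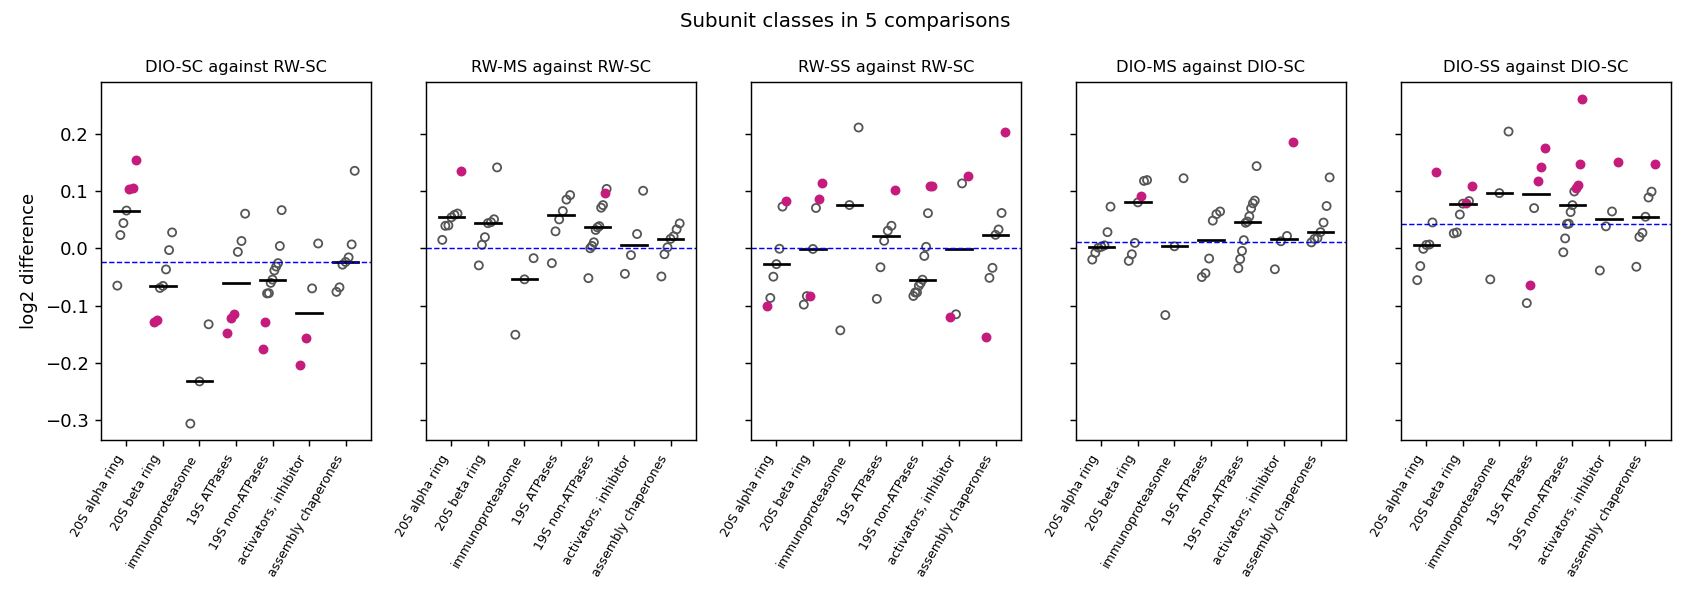
Log2 differences of single members by role (points, filled where the adjusted p is under 0.05) in 5 comparisons, with the median of each role as a black line and that of all genes tested as a dashed blue line. In air the alpha ring median (0.066) lies above that of all genes and the immunoproteasome median (-0.23) below it, and with sidestream smoke in DIO mice the 19S ATPase median is 0.095, or 0.037 with the mean of all probe sets of a gene.

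Of the 4 activators and inhibitors, 2 were lower in DIO mice in air, where 13.3% of all genes were lower. In the sidestream interaction 2 were positive and 1 negative, beside 18.3% and 10.1% of all genes. Psme3 (Entrez gene 19192), the nuclear activator PA28 gamma, read 7.99, 8.06 and 8.15 in RW-SC, 7.84, 8.02 and 8.20 in RW-MS, 7.87, 7.94 and 8.05 in RW-SS, 7.71, 7.87 and 7.94 in DIO-SC, 7.76, 7.84 and 8.03 in DIO-MS and 7.89, 8.02 and 8.12 in DIO-SS. All DIO-SC arrays lie below all RW-SC arrays. The differences were -0.20 ± 0.043 (SE, adjusted p = 0.000586) for the diet in air, 0.15 ± 0.043 (SE, adjusted p = 0.00648) for sidestream smoke in DIO mice, -0.12 ± 0.044 (SE, adjusted p = 0.0506) for sidestream smoke in RW mice and 0.27 ± 0.061 (SE, adjusted p = 0.0017) for the interaction, the largest of all member values called. The other tested probe sets of Psme3 (means 5.13 and 5.01) passed in none of these calls. They gave -0.036 and -0.14 for the diet in air, -0.12 and 0.14 for sidestream smoke in DIO mice and 0.060 and 0.14 for the interaction. Psme1 (Entrez gene 19186), the interferon-inducible PA28 alpha, read 10.69, 10.78 and 10.87 in RW-SC, 10.65, 10.73 and 10.96 in RW-MS, 10.58, 10.66 and 10.71 in RW-SS, 10.47, 10.66 and 10.73 in DIO-SC, 10.46, 10.61 and 10.77 in DIO-MS and 10.54, 10.67 and 10.82 in DIO-SS, all overlapping. It was lower in DIO mice in air with a difference of -0.16 ± 0.044 (SE, adjusted p = 0.00907) and lower with sidestream smoke in RW mice with a difference of -0.12 ± 0.045 (SE, adjusted p = 0.0471). The second call was lost without any 1 of 11 of the 15 arrays. Its sidestream interaction was 0.18 ± 0.063 (SE, adjusted p = 0.0259).

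Psme4 (Entrez gene 103554), the activator PA200, was higher with mainstream smoke in DIO mice. It read 11.08, 11.34 and 11.50 in DIO-SC, 11.43, 11.47 and 11.67 in DIO-MS and 11.28, 11.35 and 11.45 in DIO-SS, with overlap. The rise was 0.19 ± 0.052 (SE, adjusted p = 0.0284), in 6 of 6 arrays, and 1 of the other probe sets passed too (0.24). It was lost without DIO-SC 2, DIO-MS 2 or DIO-MS 3, 1 at a time. Under sidestream smoke Psme4 was lower in DIO than in RW mice with a difference of -0.15 ± 0.049 (SE, adjusted p = 0.0215). Its other probe sets gave -0.083 and 0.081 there, and neither passed. Psmf1, the inhibitor PI31, was higher with sidestream smoke in RW mice by 0.13 ± 0.041 (SE, adjusted p = 0.0188) and lower in DIO than in RW mice under sidestream smoke with a difference of -0.16 ± 0.041 (SE, adjusted p = 0.00301). Another Psmf1 probe set passed in the opposite direction in the second comparison (0.23), and in the sidestream interaction it gave 0.32 where the chosen one gave -0.17. The probe sets of Psmf1 thus disagree in direction.

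Of the assembly chaperones, Psmg2 and Psmd10 moved most. Psmg2 (Entrez gene 107047), which pairs with Psmg1 to build the alpha ring, read 8.08, 8.19 and 8.51 in RW-SC, 8.11, 8.25 and 8.40 in RW-MS, 8.14, 8.36 and 8.69 in RW-SS and 8.28, 8.48 and 8.66 in DIO-MS, with overlap. It was higher with sidestream smoke in RW mice by 0.20 ± 0.070 (SE, adjusted p = 0.028), where its other probe set passed too (0.15). Under mainstream smoke it was higher in DIO than in RW mice by 0.22 ± 0.073 (SE, adjusted p = 0.0479). Psmd10 (Entrez gene 53380), gankyrin, a chaperone of the ATPase ring, read 6.99, 7.07 and 7.25 in RW-SC, 6.78, 6.97 and 7.03 in RW-SS, 6.92, 7.10 and 7.27 in DIO-SC and 7.15, 7.18 and 7.26 in DIO-SS. The DIO-SS arrays all lie above the RW-SS arrays. It was higher in DIO than in RW mice under sidestream smoke by 0.25 ± 0.049 (SE, adjusted p = 0.00017). Its sidestream effects were -0.16 ± 0.049 (SE, adjusted p = 0.0183) in RW and 0.089 ± 0.048 (SE, adjusted p = 0.15) in DIO mice, with an interaction of 0.24 ± 0.069 (SE, adjusted p = 0.00791). The RW call was lost without RW-SS 7 (adjusted p = 0.0532). Psmd9 was higher with sidestream smoke in DIO mice by 0.15 ± 0.053 (SE, adjusted p = 0.031). The other probe set of Psmd9 gave -0.12 there and was not called. Psmd5, Psmg1, Psmg3 and Psmg4 were called in no comparison.

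Psmc3ip and Psme3ip1 are not proteasome subunits. Psmc3ip, which acts in meiotic recombination and bears the name of a binding partner, was higher with mainstream smoke in DIO mice by 0.21 ± 0.059 (SE, adjusted p = 0.0314), a call lost without any 1 of 6 arrays. Psme3ip1 was called in no comparison. Psma8, a testis form of an alpha subunit, read 3.95 to 4.91 over all groups and was not tested.

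Beyond the immunoproteasome, the subunits of a ring or cap varied together between mice more than genes at large did. After centring on the group means, the median r over pairs was 0.52 in the alpha ring (21 pairs), 0.23 in the constitutive beta ring, 0.30 among the ATPases, 0.26 among the non-ATPase subunits and 0.13 among the chaperones, against 0.011 over all pairs of tested genes. Pairs across classes had medians as high in places. These were 0.29 between the beta ring and the activators or inhibitors, 0.24 between the beta ring and the non-ATPase subunits and 0.22 between the alpha ring and the non-ATPase subunits. Others were lower, such as 0.045 between the beta ring and the ATPases. Between the alpha ring and the immunoproteasome subunits the median r was -0.31, and -0.11 without RW-MS 7 and RW-SS 7. The alpha ring itself had 0.41 without them. Genes of 1 array share its RNA and its normalization, so these values describe the arrays and carry no p.

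Other genes around the proteasome were called too. Of 15 tested partners of the 26S proteasome, 7 were higher and none lower with sidestream smoke in DIO mice, with a median of 0.098, beside 23.0% of all genes higher and 8.82% lower. In RW mice 5 were higher and 2 lower, beside 11.7% and 13.0% of all genes. Zfand5, which stimulates the proteasome, rose by 0.29 ± 0.035 (SE, adjusted p = 1.10e-07) with sidestream smoke and by 0.23 ± 0.038 (SE, adjusted p = 0.000475) with mainstream smoke in DIO mice. Its sidestream interaction was 0.14 ± 0.051 (SE, adjusted p = 0.0293). Pomp, the maturation factor of the 20S core, read 10.45, 10.56 and 10.60 in RW-SC, 10.36, 10.41 and 10.49 in DIO-SC and 10.47, 10.53 and 10.59 in DIO-SS. Pomp was lower in DIO mice in air with a difference of -0.12 ± 0.028 (SE, adjusted p = 0.00134) and higher with sidestream smoke in DIO mice by 0.12 ± 0.028 (SE, adjusted p = 0.00154). Usp14, a deubiquitinase of the cap, was higher with sidestream smoke in RW mice by 0.19 ± 0.054 (SE, adjusted p = 0.0101). Of 5 tested members of the p97 complex, which unfolds ubiquitinated proteins ahead of the proteasome, Faf1 alone was called. It was lower in DIO mice in air with a difference of -0.25 ± 0.034 (SE, adjusted p = 9.83e-07), under mainstream smoke with a difference of -0.20 ± 0.037 (SE, adjusted p = 0.000214) and under sidestream smoke with a difference of -0.14 ± 0.035 (SE, adjusted p = 0.00189), and higher with sidestream smoke in DIO mice by 0.13 ± 0.034 (SE, adjusted p = 0.00373).

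Of the 8 tested genes of the transcription factor axis that controls proteasome genes, 4 were higher with sidestream smoke in DIO mice and 3 in RW mice, beside 23.0% and 11.7% of all genes, and none was lower in either. Nfe2l1 (NRF1), the factor that raises proteasome genes when the protease is inhibited, read 9.93, 10.05 and 10.09 in RW-SC, 9.93, 10.10 and 10.13 in RW-MS, 10.01, 10.07 and 10.24 in RW-SS, 10.16, 10.21 and 10.34 in DIO-SC, 10.20, 10.30 and 10.38 in DIO-MS and 10.27, 10.34 and 10.41 in DIO-SS. The DIO arrays lie above the RW arrays of the same exposure without overlap. It was higher in DIO mice by 0.19 ± 0.034 (SE, adjusted p = 6.47e-05) in air, 0.21 ± 0.037 (SE, adjusted p = 0.000109) under mainstream and 0.23 ± 0.035 (SE, adjusted p = 4.41e-06) under sidestream smoke. In the same comparison in air 3 of the 47 members were higher and 9 lower, beside 6.92% and 13.3% of all genes. A link of Nfe2l1 to the members was not tested. Ngly1, the glycanase that activates NRF1, was lower in DIO mice in air with a difference of -0.18 ± 0.040 (SE, adjusted p = 0.00155) and higher with sidestream smoke in DIO mice by 0.24 ± 0.040 (SE, adjusted p = 2.76e-05). Nfe2l2 (NRF2), the oxidative stress factor, was higher in DIO mice in air by 0.18 ± 0.036 (SE, adjusted p = 0.000308). Bach1, a repressor that competes at antioxidant elements, was higher with smoke in all 4 comparisons with air, by 0.22 to 0.31. Of 5 tested ubiquitin ligases of muscle, 2 (Mdm2 and Stub1) were higher with sidestream smoke in DIO mice, beside the same 23.0%.

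Markers of other cell types moved with some groups. The adipocyte list (7 of 10 tested) had a median difference of -1.3 between DIO-SC and RW-SC, with 1 of 7 genes lower, beside 13.3% of all genes. In the list measure given above it ranged from -1.6 to 2.1 in RW-SC and -1.9 to 0.72 in DIO-SC. The endothelial list (9 of 10 tested) had 5 of 9 genes higher with sidestream smoke in DIO mice, beside 23.0% of all genes. It ranged from 0.045 to 0.21 in DIO-SS and -0.087 to 0.041 in DIO-SC. The red cell list (4 of 9 tested) had 3 of 4 higher with sidestream smoke in RW mice, beside 11.7% of all genes. It ranged from 0.0031 to 1.2 in RW-SS and -0.33 to -0.067 in RW-SC. The fibroblast list had 6 of 10 genes higher in DIO-SS than in RW-SS, beside 19.7% of all genes. The cardiomyocyte list ranged from -0.056 to 0.061 over all groups. The part of these cells in the proteasome values was not tested. Without RW-MS 2, RW-MS 6 and RW-MS 8, the count for mainstream smoke in RW mice was 1 in place of 2.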

How the data were processed

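The authors deposited 1 table of log2 values, 45 arrays by 22690 probe sets, made with RMA (per the submitters' processing notes; version not given in the sources used here). RMA subtracts background, normalizes by quantiles and summarises probes, which makes arrays comparable and hides a shift shared by all genes. Of the probe sets 20393 had 1 annotated gene, and 691 had several and were left out. Genes in the lowest 25% by mean level (cutoff 4.90) were left out of the tests. Group means over all arrays were fitted with limma 3.58.1 (R 4.3.3, lmFit and eBayes, two-sided, 42.6 degrees of freedom with the prior), and p-values were adjusted by Benjamini-Hochberg over 9295 genes per comparison at 0.05. The procedure was tested on simulated data. Members and lists were chosen with earlier results of these data known. All 48 members could be named; array values are given for the 6 catalytic subunits, Psme1 and up to 5 members per comparison with the smallest adjusted p. Of other lists up to 3 genes per comparison and a panel were named. Replicate numbers of the titles were not used to pair the arrays: same-numbered arrays correlated above 0.1 in 34 of 106 pairs. Their median r was 0.20 between RW-MS and RW-SS, against 0.006 for other numbers, and -0.20 between RW-SC and DIO-SC, against 0.077. No matching count was made for other numbers, so a pairing is not excluded. P-values measure the spread between these mice. The labels call the replicates biological and name no batch. One protocol speaks of an LPS study, and the titles, which name smoke, were followed. The precision is set by how many arrays each group has. Ubiquitin genes were not analysed here. Promoters are from RefSeq (GRCm38.p6).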

Additional observations from a re-analysis of the deposited data

Results flagged for a closer look

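Single arrays stood far from the rest of their group for several proteasome genes, by Dixon's test at the 95% level. This was tested for 23 genes in 6 groups, 138 tests, of which 13 passed and about 6.9 would by chance. Of the 13, RW-MS 7 gave 3: Psmb8 at 8.79 (next array 7.76), Psmb9 at 7.89 (next 7.16) and Psmb10 at 9.25 (next 9.09). RW-SS 7 gave 4: Psmb10 at 9.58 (next 9.14), Psma2 at 10.92 (next 11.08), Psmd13 at 8.74 (next 8.41) and Psmd14 at 9.67 (next 9.93). The others were Psmb8 at 8.05 in DIO-SC 2, Psmb9 at 7.44 in DIO-MS 1, Psmb6 at 10.75 in RW-SC 3, Psma4 at 10.39 in DIO-MS 6, Psma5 at 10.57 in RW-SC 8 and Psmb4 at 11.12 in RW-SS 3.

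The effect of sidestream smoke differed between the diets for 11 members, by the interaction term of limma. The difference, DIO minus RW, was positive for Psmb3 (0.16), Psmb5 (0.16), Psmc3 (0.21), Psmd1 (0.16), Psmd10 (0.24), Psmd13 (0.20), Psmd14 (0.19), Psme1 (0.18) and Psme3 (0.27). It was negative for Psmc2 (-0.09) and Psmf1 (-0.17). The other probe sets of Psmb3, Psmd13 and Psmc2 gave 0.064, 0.090 and 0.087, those of Psme3 gave 0.060 and 0.14, and none of these was called. Another of Psmf1 gave 0.32 and was called. The adjusted p lay between 0.00151 (Psmc3) and 0.0443 (Psmb3), and 28.4% of all genes passed in this interaction.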

How the results depend on the processing

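The number of members called was recomputed under 11 alternatives to the settings above, and the median of each class and its correlation likewise. Beside the 37 calls of members with other tested probe sets stood 71 values of those other probe sets. Of these, 48 went in the same direction, 10 of them called, and 23 in the opposite direction, 2 of them called. Those 2 were of 1 Psmf1 probe set (0.23 and 0.32). Counts that moved by over 1.5 times were, for mainstream smoke in RW mice (2), 0 with the mean of all probe sets, 6 with array weights, 1 with only the groups compared and 1 without RW-MS 2, 6 and 8. For sidestream smoke in RW mice (12), only the groups compared gave 6. For mainstream smoke in DIO mice (3), array weights gave 5, only the groups compared 1 and the replicate block, by either number, 1. For sidestream smoke in DIO mice (13), the mean of probe sets gave 6. For the diet under mainstream smoke (8) the mean of probe sets gave 5 and only the groups compared 1. For sidestream against mainstream smoke in RW mice (4), array weights gave 2, only the groups compared 0 and every probe set on its own 8; in DIO mice (2), no filter gave 1, array weights 10, a fit to these groups alone 0, quantile normalization 0, and the replicate block 1 by title number and 0 by description number. The replicate block moved no other count by that much.

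A further quantile normalization changed the split of higher and lower calls: 10 and 1 for sidestream smoke in RW mice, 7 and 3 in DIO mice, 6 and 8 for the diet under sidestream smoke, and 3 and 4 (7 in all) for the sidestream interaction. Leaving out 1 array gave counts of 0 to 5 for mainstream smoke in DIO mice, 5 to 8 for the diet under mainstream smoke, 2 to 5 and 0 to 4 for sidestream against mainstream smoke in RW and DIO mice. The cause was not tested. Counts ranged from 9 to 14 and 10 to 15 for sidestream smoke in RW and DIO mice and from 8 to 13 for the sidestream interaction.

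Class medians that moved by more than the spread were as follows. For sidestream smoke in RW mice, the mean of probe sets gave 0.052 for the beta ring and -0.023 for the ATPases, every probe set gave -0.023 for the ATPases and 0.012 for the non-ATPase subunits, and quantile normalization -0.012 for the latter, whose median lay between -0.064 and -0.0051 without 1 array. Every probe set gave 0.11 for the activators with mainstream smoke in DIO mice and -0.015 for the ATPases between the diets in air. The mean of probe sets gave 0.037 for the ATPases with sidestream smoke in DIO mice. Between the diets under mainstream smoke, the mean of probe sets and every probe set gave -0.038 and -0.018 for the activators and 0.046 and 0.057 for the chaperones. Between the diets under sidestream smoke they gave 0.024 and 0.026 for the activators. There quantile normalization gave -0.020 for the beta ring, -0.056 for the ATPases, -0.0072 for the non-ATPase subunits and -0.035 for the chaperones, and every probe set gave 0.0028 for the non-ATPase subunits and -0.029 for the chaperones. Between the smokes in RW mice, leaving out RW-MS 2, 6 and 8 gave 0.027 for the activators and array weights -0.047 for the chaperones. In the sidestream interaction, quantile normalization gave 0.0039 for the alpha ring, -0.031 for the ATPases, 0.031 for the non-ATPase subunits and -0.038 for the chaperones, every probe set gave 0.059 for the non-ATPase subunits, and the beta median lay between 0.019 and 0.099 without 1 array. The median pairwise r was 0.58 for the immunoproteasome without RW-MS 7 and RW-SS 7, an alternative chosen after seeing the data, and 0.18 for the ATPases with quantile normalization.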
